A study of Homo sapiens with 15 samples.

Results

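RUFY4, AGXT, KLK7, WNT8A, BZRAP1 and TMEM190 are 6 protein-coding genes best known from tissues other than kidney, and their RNA was high in a single group of HEK293FT cells. They were chosen by symbol, with their levels in the libraries titled trex0108 already known. They are 6 of the 11230 rows of the authors' deposited table, which lists a row only if some comparison gave it an adjusted p below 0.1. The level of these genes in trex0108 against control is therefore described here without a test. The deposited adjusted p-values are used for these genes in the other groups and, for other rows, in trex0108 as well. A row is called here if its adjusted p is under 0.05. The authors' own call score is not used.

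HEK293FT is a fast-growing transfectable line derived from human embryonic kidney cells. All cells received a catalytically dead Cas9 fused to the VP64 activation domain, an MS2-p65-HSF1 co-activator and a set of 5 guide RNAs. In 4 groups (trex0108, trex4039, trex5008 and trex8168) the guides lay 50 to 450 bp upstream of the start of a TrEx long non-coding RNA, and in the control group they were non-targeting. Puromycin at 2 ug/mL was added 24 hours after transfection to each group, and polyA RNA was taken at 48 hours. The 15 libraries are biological triplicates of the 5 groups, 3 for each. Groups are named by the library titles. The target label of trex0108 reads TrEx108, whereas the labels of trex5008 and trex8168 are crossed against their titles, so what was targeted in those 2 groups is not settled. The pool of transfected cells was measured in bulk, so a rise in few cells and a smaller rise in many cells cannot be told apart.

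Each gene has a restricted home. RUFY4 is a RUN and FYVE domain protein of dendritic cells that acts in autophagy and endosome positioning. AGXT is the liver peroxisomal enzyme that turns glyoxylate into glycine, and its loss causes primary hyperoxaluria. KLK7 is a chymotrypsin-like kallikrein that cleaves the cell contacts of the outer skin so that it can shed. WNT8A is a secreted WNT ligand of the early embryo; WNT ligands bind Frizzled and LRP receptors, stabilise beta-catenin and switch on target genes such as T in the primitive streak. BZRAP1, now named TSPOAP1 or RIM-binding protein 1, is a brain scaffold that links calcium channels to the presynaptic release machinery and also binds the translocator protein TSPO. TMEM190 is a small membrane protein with a trefoil domain, known from sperm.

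The mean normalised count in control ran from 1.56 for AGXT to 41.5 for RUFY4, and in trex0108 from 262.0 for TMEM190 to 4548 for RUFY4. The ratio of the trex0108 mean to the control mean ran from 7.26 for TMEM190 to 271 for AGXT, with a median of 24.6. In the other target groups the means lay between 0.585 and 2.27 times control. Only 74 of the 11230 rows, or 0.659%, had a trex0108 mean at least 5 times that of every other group, and the 6 genes are among them by choice. The table holds group means, but these carry 7 significant digits, and for means up to 44 the whole reads of the 3 libraries behind a mean could be recovered by search. Dividing the reads by each library's recovered size factor, 0.839 to 1.2, gave the normalised counts of single libraries that are printed below. This covered all 6 genes in control, trex4039, trex5008 and trex8168, 12 libraries that cannot be matched to titles. In trex0108 too many combinations of reads gave the same mean.

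**Figure D1:**
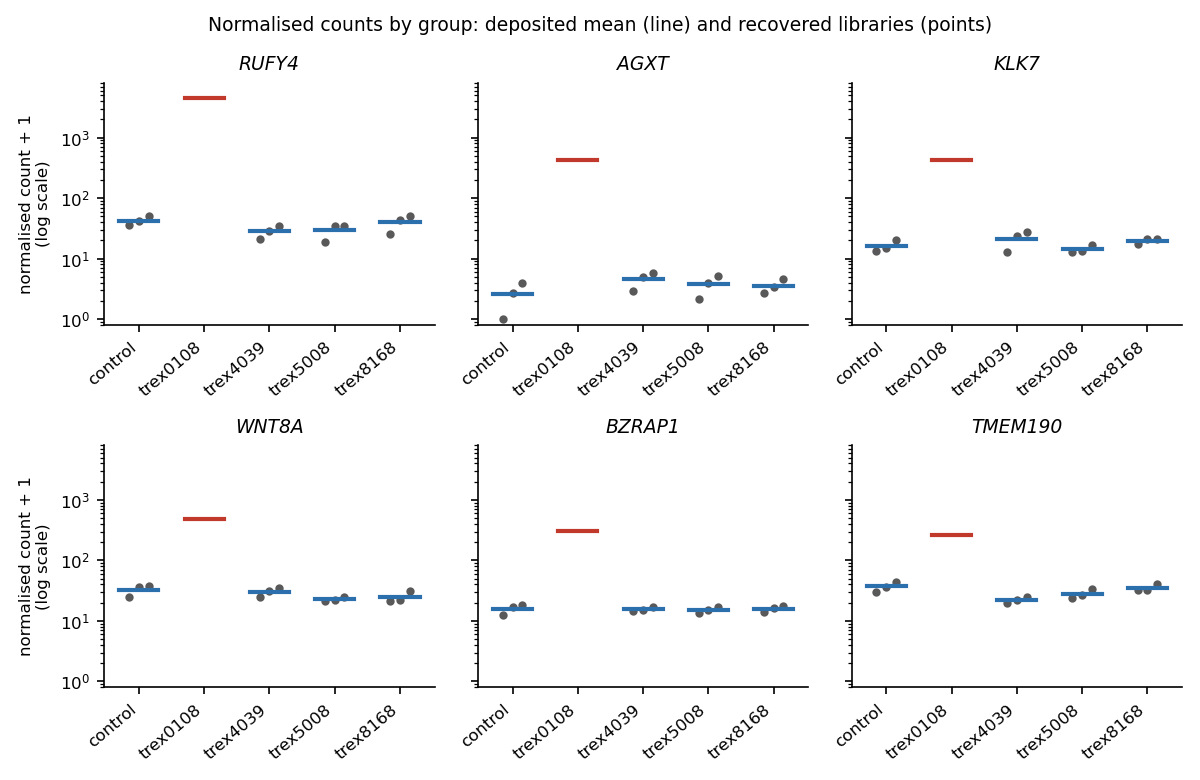
Normalised count plus 1 on a log axis for each gene in the 5 groups. Lines are the deposited group means and points are single libraries recovered from those means, which was not possible for these genes in trex0108. In each panel the trex0108 line (4548 for RUFY4, 262.0 for TMEM190) stands above every other line and point.

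The sequences in front of the genes are shown because 6 genes on 4 chromosomes were high in the same group. RefSeq start sites on GRCh38.p14 were matched for 5 of the 6 genes, with 8 start sites, and BZRAP1 was not matched. Windows of 300 bases, 250 before and 50 after the start, were searched on both strands for 5 short motifs, none of which is part of another. The TATA box was searched as TATAAA. The CCAAT box was searched by the letters of its name. The GC box was searched as GGGCGG. The E-box was searched as CACGTG. The AP-1 site was searched as TGANTCA. The 250 bases before the outermost start are printed for 4 genes, with matches in capitals. They are chr2:218034684-218034933 for RUFY4, chr2:240868574-240868823 for AGXT, chr5:138083783-138084032 for WNT8A and chr19:55376576-55376825 for TMEM190, all on the plus strand.
RUFY4: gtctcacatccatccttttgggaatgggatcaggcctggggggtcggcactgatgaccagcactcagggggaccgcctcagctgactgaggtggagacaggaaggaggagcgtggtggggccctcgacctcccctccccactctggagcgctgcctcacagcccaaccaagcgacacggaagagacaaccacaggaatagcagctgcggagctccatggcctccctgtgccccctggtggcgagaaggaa
AGXT: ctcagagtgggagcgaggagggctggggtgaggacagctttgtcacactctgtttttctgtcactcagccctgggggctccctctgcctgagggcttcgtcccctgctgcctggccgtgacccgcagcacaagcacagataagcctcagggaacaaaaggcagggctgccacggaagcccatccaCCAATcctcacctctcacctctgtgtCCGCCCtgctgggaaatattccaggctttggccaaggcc
WNT8A: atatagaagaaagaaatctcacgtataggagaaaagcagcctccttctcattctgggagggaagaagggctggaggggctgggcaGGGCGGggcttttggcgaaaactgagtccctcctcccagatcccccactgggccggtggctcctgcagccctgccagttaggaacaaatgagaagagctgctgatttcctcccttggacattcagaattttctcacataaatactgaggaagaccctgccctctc
TMEM190: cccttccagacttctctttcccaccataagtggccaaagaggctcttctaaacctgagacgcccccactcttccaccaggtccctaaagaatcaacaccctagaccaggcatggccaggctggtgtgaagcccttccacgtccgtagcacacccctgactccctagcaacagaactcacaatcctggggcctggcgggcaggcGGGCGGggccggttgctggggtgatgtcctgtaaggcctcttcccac
AGXT had a CCAAT box starting 65 bases and a GC box starting 39 bases before the start site. WNT8A had a GC box at -165 and TMEM190 had one at -47. The outermost KLK7 start, on the minus strand, had a CCAAT box at -2 and GC boxes at -205 and -46. No match of these 5 motifs lay in the RUFY4 window. Of 35116 RefSeq windows of the same length, 34.6% held a CCAAT box, 45.0% a GC box, 11.5% a TATA box, 7.26% an E-box and 7.71% an AP-1 site. In each of the 5 outermost windows the ratio of observed to expected CpG was below the median of all windows, which was 0.579. It was lowest for WNT8A, at 0.179, then 0.253 for TMEM190, 0.306 for AGXT, 0.359 for RUFY4 and 0.528 for KLK7. The GC content of these windows, 54.7% to 62.7%, lay on both sides of the median of 58.7%.

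RUFY4 (chr2:218899564-218955409, hg19) had the largest deposited change of the 6. Its mean normalised count was 41.5 in control, 4548 in trex0108, 27.4 in trex4039, 28.7 in trex5008 and 38.7 in trex8168. For trex0108 the authors' deposited table gives it a log2 fold change of 5.23, smaller than the log2 ratio of the 2 means. The 3 control libraries held 48, 40 and 50 reads, or 40.9, 34.7 and 49.0 after normalisation. The trex4039 libraries stood at 20.5, 27.8 and 34.0, and the trex5008 libraries at 17.9, 34.1 and 34.2. All 6 of these values lay below the lowest control library, the closest by less than 1 normalised count, whereas the trex8168 libraries (25.0, 42.2 and 48.9) overlapped control. None of these differences was called, with adjusted p in the authors' deposited table of 0.231 in trex4039, 0.270 in trex5008 and 0.938 in trex8168. For RUFY4 the recovered reads are least secure in trex5008 and trex8168, where the next combination of reads missed the deposited mean by 1.59 and 1.45 rounding half-units. The combinations used missed it by 0.0968 and 0.854.

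AGXT (chr2:241787242-241824829, hg19) had few reads outside trex0108. The control libraries held 0, 2 and 3 reads, and those 5 reads carry an exact 95% Poisson interval of 1.62 to 11.7 for counting error alone. The other target groups held 10 reads in trex4039, 9 in trex5008 and 7 in trex8168, with 1 to 5 reads in a library. The trex0108 mean of 422.2 corresponds to between 1114 and 1419 reads in its 3 libraries together. In the authors' deposited table the log2 fold change was 4.21 in trex0108 and 0.15, 0.10 and 0.12 in trex4039, trex5008 and trex8168, with adjusted p of 0.467, 0.637 and 0.657. In normalised counts the control libraries (0, 1.74 and 2.94) overlapped those of each other target group. The AGXT row is 3.13 times as long as the gene in GENCODE 29, so reads from beyond the annotated gene may be counted in it.

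KLK7 (chr19:51479729-51487294, hg19) averaged 15.2 normalised counts in control and 428.9 in trex0108, and the authors' deposited table gives this a log2 fold change of 3.42. The control libraries stood at 12.1, 13.7 and 19.6 normalised counts. Those of trex4039 were 11.7, 22.8 and 26.3, those of trex5008 11.7, 12.3 and 16.08, and those of trex8168 16.4, 19.8 and 20.3. Every target group other than trex0108 overlapped control. The adjusted p in the authors' deposited table were 0.327, 0.873 and 0.547 in trex4039, trex5008 and trex8168.

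WNT8A (chr5:137419603-137429101, hg19) averaged 31.9 normalised counts in control and 474.1 in trex0108, and the authors' deposited table puts the log2 fold change at 3.04. Control libraries stood at 23.9, 35.6 and 36.2 normalised counts. The trex4039 libraries were at 23.8, 30.4 and 34.1, the trex5008 libraries at 20.1, 21.3 and 24.2, and the trex8168 libraries at 20.3, 21.1 and 30.1. The groups overlapped, in trex5008 only through the lowest control library. The adjusted p in the authors' deposited table were 0.902, 0.201 and 0.528.

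BZRAP1 (chr17:56365831-56406212, hg19) stayed within the control range in the other target groups. Its control libraries stood at 11.3, 15.7 and 17.1 normalised counts. The 9 libraries of trex4039, trex5008 and trex8168 all lay between 12.3 and 16.4, inside the control range. The group average went from 14.7 normalised counts in control to 306.4 in trex0108, and the authors' deposited table gives a log2 fold change of 2.98. The adjusted p of the other comparisons there were 0.918, 0.989 and 0.898. The BZRAP1 row is 1.47 times as long as the gene in GENCODE 29 and overlaps the antisense row BZRAP1-AS1. Reads from beyond the annotated gene may be counted in it.

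TMEM190 (chr19:55881949-55891632, hg19) had the smallest of the 6 changes, from an average of 36.1 normalised counts in control to 262.0 in trex0108. The authors' deposited table puts its log2 fold change at 2.14. Control libraries stood at 29.5, 35.3 and 43.5 normalised counts, and the trex4039 libraries at 18.8, 21.1 and 23.4. The 2 groups did not overlap, and the log2 ratio of their means was -0.77. TMEM190 was called lower in trex4039 (log2 fold change -0.34, adjusted p 0.0446, the authors' deposited table). The trex5008 libraries (22.5, 25.8 and 32.2) and the trex8168 libraries (31.0, 31.7 and 39.3) overlapped control, and the authors' deposited table gives adjusted p of 0.249 and 0.903. The row is 6.87 times as long as TMEM190 in GENCODE 29 and spans a further gene, FAM71E2, so the reads of the 2 cannot be assigned with certainty.

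TMEM190 in trex4039 was the single call at an adjusted p under 0.05 among the 18 values of 6 genes in 3 comparisons, all of which share the control libraries. Over all rows with an adjusted p, 70.7% were called in trex4039, 54.1% in trex5008 and 21.0% in trex8168 in either direction. In libraries, 2 of the 6 genes lay wholly below control in trex4039, 1 in trex5008 and 0 in trex8168. Among low rows with recovered reads, 55.3%, 29.8% and 38.0% did so in the same comparisons. Most rows were listed through a change in these comparisons, whereas trex0108 alone would have listed each of the 6 genes. The shares of all rows therefore cannot show whether the counts for the 6 genes are high or low. The median log2 fold change of the 6 genes in the authors' deposited table was 0.00 in trex4039, -0.12 in trex5008 and 0.01 in trex8168, beside 0.03, 0.02 and 0.04 over all rows.

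The rows around the 6 genes were described next. Within 500 kb of the 6 genes the table lists 107 other rows, of which 24 were called higher and 0 lower in trex0108 (deposited adjusted p under 0.05). Of all 11230 rows, 5.65% were called higher and 0.249% lower. Within 100 kb 11 of 28 rows were called higher. TMEM190 had the most with 9 of 33, KLK7 had 6 of 21, AGXT 3 of 16, and RUFY4, WNT8A and BZRAP1 had 2 each of 11, 12 and 14.

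Beside TMEM190 stood the largest deposited change of the 24. XLOC_032320 (chr19:55875203-55881831, protein-coding, no gene name in the table) ends 117 bases before the TMEM190 row, and its mean went from 75.4 to 789.5 normalised counts. The authors' deposited table gives it a log2 fold change of 2.88. TMEM190 itself has 2.14. Inside the TMEM190 row, FAM71E2 went from 7.15 to 77.6 and the antisense transcript CTD-2105E13.15 from 4.49 to 93.8. Their log2 fold changes in the authors' deposited table were 1.57 and 1.84. FAM71E2 held 10, 7 and 7 reads in the control libraries and CTD-2105E13.15 held 7, 3 and 5. BRSK1, a brain kinase 53.8 kb away, went from 1541 to 3206. SBK2, 139 kb away, went from 37.4 to 100.9. The remaining 4 called rows, TNNT1, EPS8L1, SBK3 and CTD-2587H24.5, ranged from 0.31 to 0.51 in log2 fold change (the authors' deposited table). By the ratio of the means XLOC_032320 rose 10.5-fold, less than CTD-2105E13.15 (20.9-fold) and FAM71E2 (10.8-fold). CXCR2P1 beside RUFY4 (15.3-fold) and C2orf54 beside AGXT (12.2-fold) also rose more by that ratio.

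Beside RUFY4 the pseudogene CXCR2P1, which lies inside the RUFY4 row, went from 8.34 to 127.5 on average, and the authors' deposited table gives a log2 fold change of 2.08. The row XLOC_037514, 858 bases away, went from 926.8 to 1115. The next row beyond RUFY4, XLOC_034752 at 126 kb, was not called, with means of 6837 and 7347. The sources used here do not say whether strand was used in counting, and RUFY4 reads and CXCR2P1 reads may be shared.

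Beside AGXT the gene C2orf54 starts 521 bases after the end of the row. Its control libraries stood at 1.71, 1.74 and 2.94 normalised counts and its trex0108 libraries at 24.1, 25.0 and 28.4. The 2 groups did not overlap, and the authors' deposited table gives a log2 fold change of 0.79. KIF1A, a motor protein of synaptic vesicle transport 26.4 kb on the other side, was not called, with means of 4107 and 4039. SNED1, 112 kb away, was not called either, with means of 230.0 and 201.6. A pair of called rows stood farther out, XLOC_035092 at 207 kb (1075 to 2235) and XLOC_037878 at 261 kb (171.5 to 295.3).

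Beside KLK7 the called rows included 2 further kallikreins of the same gene cluster. KLK14, a trypsin-like skin kallikrein 93.3 kb away, went from a mean of 39.5 to 109.6, with control libraries of 33.3, 39.2 and 46.0. KLK4, the enamel kallikrein 65.1 kb away, went from 50.3 to 91.5. Their log2 fold changes in the authors' deposited table were 0.96 and 0.58. The protein-coding row XLOC_032186, 11.7 kb away, went from 60.8 to 148.6, and VSIG10L, 343 kb away, from 227.1 to 672.5. IGLON5 (146.6 to 247.4) and XLOC_032169 (1846 to 2326) were the remaining called rows, and the pseudogene KLKP1 was not called (115.6 and 157.5).

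Within 100 kb of WNT8A 0 of 4 listed rows were called, and within 100 kb of BZRAP1 1 of 4. The rows next to WNT8A, NME5 at 15.5 kb, XLOC_052878 at 31.8 kb, KIF20A at 85.2 kb and RP11-381K20.2 at 195 kb, had trex0108 means within 5% of control and were not called. EGR1, an immediate early transcription factor 371 kb away, went from 587.2 to 1261. SPOCK1, 486 kb away, went from 335.9 to 422.4 (adjusted p 0.0499, the authors' deposited table). The antisense row BZRAP1-AS1 that overlaps BZRAP1 had means of 43.5 and 71.0 and missed the threshold (adjusted p 0.0633, the authors' deposited table). Another BZRAP1-AS1 row, 26.8 kb away, had means of 57.3 and 50.7 and was not called. MKS1, 69.1 kb away, was not called (1686 and 1664). The called rows near BZRAP1 were XLOC_027617 (5043 to 6064) and PPM1E (1687 to 2004).

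**Figure D2:**
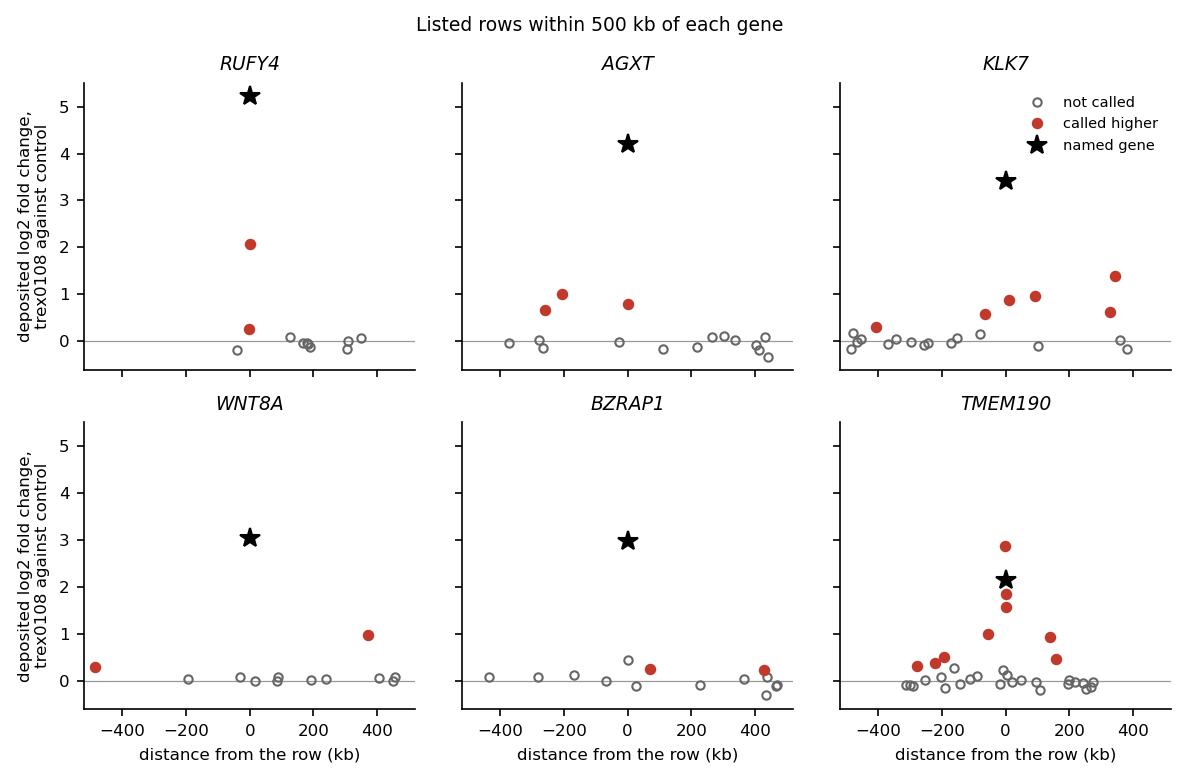
Deposited log2 fold change in trex0108 against control for each listed row within 500 kb, by distance from the gene's row in kb (0 where rows overlap). Stars are the 6 genes, filled points the 24 rows called higher and open points the rows not called. The rows closest to TMEM190 reach 2.88, while the rows nearest to WNT8A lie near 0.

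The 24 neighbouring rows were chosen by their call in trex0108, so fewer calls in the other groups were fixed in advance. Those groups share the control libraries. Shares of all rows are given beside the counts, but most rows were listed through changes in those other groups. In trex4039 3 were called higher and 7 lower, where 37.1% of all rows were called higher and 33.7% lower. In trex5008 it was 2 and 4, beside 29.8% and 24.3% of all rows. In trex8168 it was 4 and 1, beside 14.6% and 6.45%. XLOC_032320 was called higher in trex4039 and trex8168, at 0.32 and 0.41 in log2 fold change (the authors' deposited table), against 2.88 in trex0108. EGR1 was called higher in trex5008 (0.40) and trex8168 (0.41), and PPM1E in trex4039 (0.47) and trex5008 (0.27). PPM1E had means of 2378 and 2055 there, above its 2004 in trex0108. SBK3 was called higher in trex8168, with a mean of 124.3 against 123.8 in trex0108. The other higher calls were XLOC_037514 in trex4039 (0.21) and XLOC_027617 in trex8168 (0.16). KLK14 was called lower in trex4039 (log2 fold change -0.36, adjusted p 0.0377, the authors' deposited table).

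Other genes of the same pathways were counted without the 6 chosen genes, whose calls in trex0108 the choice had fixed. Of the 63 remaining listed rows of 7 gene lists, 7 were called higher (11.1%) and 0 lower in trex0108, beside 5.65% and 0.249% of all rows. Of 6 other RUFY and RUN domain rows 0 were called. Among them were RUFY2 (means of 1106 and 1142) and FYCO1 (1986 and 1900), an autophagosome transport adaptor. Of 11 other glyoxylate and peroxisome genes 1 was called higher and 0 lower. GRHPR, the next glyoxylate enzyme, had means of 2267 and 2199 and was not called.

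Of 4 other kallikreins and skin proteases KLK14 and KLK4, the neighbours of KLK7 named above, were called higher. The median of the 4 was 0.33 in log2 fold change (the authors' deposited table), beside 0.02 over all rows. Those not called were KLK1 (means of 77.0 and 82.2) and DSC1, a desmosomal cadherin of skin. DSC1 libraries stood at 17.1, 17.4 and 18.6 in control and at 18.2, 20.2 and 22.3 in trex0108, which overlap.

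Of 5 other WNT ligands WNT9B was called higher and 0 lower, WNT9B from 34.5 to 83.2 normalised counts (log2 fold change 0.78, the authors' deposited table). WNT9B is known for its role in kidney tubule induction. WNT8B, the closest relative of WNT8A, had means of 64.8 and 41.7 and was not called. Of 26 listed rows of WNT receptors, antagonists and targets, CDX1 and T were called higher and 0 lower. CDX1, an intestinal homeobox factor, went from 2.33 to 175.9, and T (brachyury) from 237.2 to 413.8. Their log2 fold changes in the authors' deposited table were 2.81 and 0.70. AXIN2, a general readout of beta-catenin signalling, had means of 998.4 and 929.1, and was not called. The Frizzled receptors FZD3, FZD6, FZD8 and FZD10 and the co-receptors LRP5 and LRP6 were not called either. From the authors' deposited table the median log2 fold change of this list was 0.00.

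Of 9 other genes of RIM-binding proteins and the presynaptic active zone, 1 was called higher and 0 lower. TSPO, the binding partner of BZRAP1, had means of 756.2 and 702.7 and was not called. The list of trefoil, sperm and acrosome genes had 2 other rows, both of ZP3, and 0 were called. ZP3 is a gene of the egg coat, so no other trefoil or sperm gene was examined.

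Calls in the other comparisons are given only for the largest list and that of AGXT. Of all rows, 37.1% were called higher and 33.7% lower in trex4039. These shares were 29.8% and 24.3% in trex5008, and 14.6% and 6.45% in trex8168. Of 26 rows of WNT receptors, antagonists and targets, 7 were higher and 7 lower in trex4039, 3 and 9 in trex5008, and 0 and 2 in trex8168. Glyoxylate and peroxisome genes had 4 higher and 2 lower in trex4039, 3 and 2 in trex5008, and 4 and 0 in trex8168. That list is taken here with its 12 rows, AGXT included, and AGXT was not called in these comparisons.

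Few markers of other cell types are listed, and sperm had no marker list beyond the trefoil and sperm genes, of which only TMEM190 and ZP3 are listed. Of 99 marker genes of hepatocytes, cardiomyocytes, keratinocytes, dendritic cells, primitive streak, neurons and airway cilia, 11 are in the table. Of these 11, 2 were called higher in trex0108 and 0 lower, beside 5.65% and 0.249% of all rows. The 2 are MYH6 and T, and T was already counted above in the list of WNT targets. The 3 listed cardiomyocyte genes, MYH6, TNNI1 and NKX2-5, had a summed mean of 1512 in control and 2824 in trex0108, and 1321 to 1636 in the other target groups. Most of that difference was MYH6, from 50.1 to 1184, while TNNI1 (14.7 and 25.4) and NKX2-5 (1447 and 1614) were not called. Hepatocytes were represented by CPS1 alone (means of 441.6 and 471.9), keratinocytes by DSC3 (2132 and 2325) and dendritic cells by LAMP3 (184.4 and 193.5), none of them called. Of 13 markers of HEK293 and embryonic kidney 5 are listed, and 0 were called in trex0108. Their summed mean was 11144 in control, 8677 to 11581 in the other target groups and 11693 in trex0108. Most of the sum was NEFM, which is also in the neuron list, and KRT8, with control means of 5358 and 4548. The kidney factors PAX2, LHX1 and WT1 had control means of 368.6, 449.9 and 419.1, so the sum says little of them. The part of these markers in the levels of the 6 genes was not tested. The marker genes that the table does not list were not analysed here.

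Likeness in pattern was measured as the distance between rows of log2(mean + 1) minus control over the 4 target groups, a description that rests on 5 group means and shared control libraries. The trex0108 values, by which the 6 genes were chosen, held the largest differences, so a near row is mainly a row with a similar rise there. BZRAP1 was most like MYH6, the alpha heavy chain of heart myosin, at a distance of 0.26. With a pseudocount of 10 BZRAP1 kept 0 of its 3 nearest rows. MYH6 went from a mean of 50.1 to 1184 in trex0108 and stood at 47.8 to 52.0 in the other target groups. AGXT was most like CTD-2201G16.1, the antisense transcript that overlaps MYH6 (chr14:23871736-23889217, hg19), at 0.28, with means of 3.40 in control and 796.6 in trex0108. CTD-2201G16.1 held 2, 3 and 6 reads in the control libraries and had the largest deposited log2 fold change in trex0108 of the rows not annotated as protein-coding (4.97, the authors' deposited table). By log2(mean + 1) minus control, CATG00000005887.1 stood higher, at 7.93 against 7.50.

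The rows nearest to RUFY4 were farther off. UNC93A stood at a distance of 1.38, CDX1 at 1.46 and CATG00000005887.1 at 1.60. KLK7 was nearest to CATG00000042034.1 (0.45), the hair keratin KRT82 (0.50) and MYH6 (0.53). WNT8A was nearest to EHMT2-AS1 (0.42), XLOC_037754 (0.51) and CTD-2105E13.15 (0.58), and TMEM190 to RP13-638C3.6 (0.38), XLOC_062692 (0.38) and its overlapping neighbour FAM71E2 (0.49). Among the 6 genes themselves KLK7 and BZRAP1 were closest, at 0.67, and AGXT and TMEM190 farthest apart, at 4.94. Several of these rows have few reads. UNC93A and CATG00000042034.1 had 0 reads in control, XLOC_062692 and CATG00000005887.1 had 2, and KRT82 had 6.

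**Figure D3:**
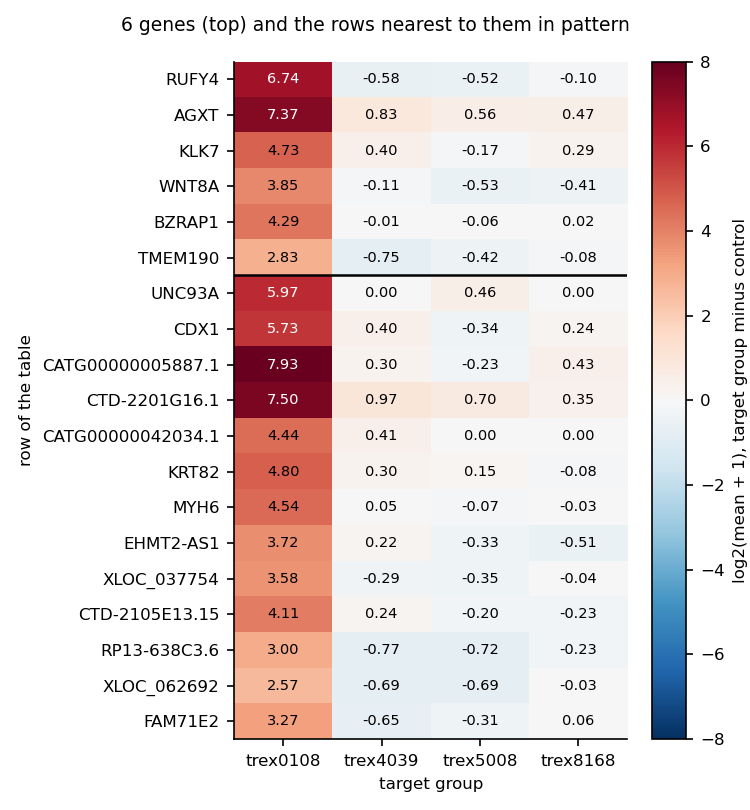
Log2(mean + 1) minus control in the 4 target groups (colour and number) for the 6 genes, above the line, and for the 13 rows nearest to them in pattern. The trex0108 column runs from 2.57 to 7.93, and the values in the other columns lie between -0.77 and 0.97.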

How the data were processed

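PolyA RNA was sequenced from 15 HEK293FT libraries in 5 groups of 3. Tools named in the submitters' processing notes, without role or order, are STAR 2.5.1b, Bowtie2 2.2.1, Cufflinks, bedtools, DESeq2 1.14.1 and DESeq, and the build is hg19 (GRCh37). Each signal value is a group's mean normalised count, made by the authors. Log2 fold changes against control were deposited beside them, as were adjusted p-values, taken as given at a threshold of 0.05. A deposited score of -1, 0 or 1, the authors' call, was not used for counting. The table holds no values per library, so the planned edgeR fit was not made. Library totals are unknown.

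A mean of 3 libraries is a sum of whole reads, each divided by 3 size factors. As the means have 7 significant digits, reads per library could be recovered for means up to 44 by searching whole-number combinations (Python 3.11.15, numpy 2.4.6). Of 6756 such means 6474 had a single solution (95.8%), within 1.2 rounding half-units, and 0 had none. The share was 80.1% in trex5008 and 99.4% to 100.0% in the other groups. In 4 simulated runs 99.8% of 10984 means had a single solution, and each of these 10962 solutions was correct. That share was above the 80.1% of trex5008, so the runs do not show how safe the recovery is there. Recovered size factors ran from 0.839 to 1.2. This recovery was added after the data were seen. Libraries are not matched to sample titles.

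Members, gene lists and rules were chosen with earlier results of these data known. Named rows are the 6 genes, their nearest and called neighbours within 500 kb, their 3 nearest rows in pattern, up to 4 called rows of each list, CTD-2201G16.1 and MYH6. Other rows were named after their values were seen, and some called rows of the lists are not reported here. Alternatives covered the fold-change scale, thresholds, the window, a filter on low means, the pseudocount and leaving out each recovered library. Promoter windows are RefSeq, GRCh38.p14, and no hg19 coordinates were converted.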

Additional observations from a re-analysis of the deposited data

How the results depend on the processing

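The deposited fold changes of the 6 genes in trex0108 were smaller than the log2 ratios of the means. With a pseudocount of 1 these were 6.74 for RUFY4, 7.37 for AGXT, 4.73 for KLK7, 3.85 for WNT8A, 4.29 for BZRAP1 and 2.83 for TMEM190. With a pseudocount of 10 they were 6.47, 5.22, 4.12, 3.53, 3.68 and 2.56 in the same order, so AGXT led with the first and RUFY4 with the second. At an adjusted p under 0.01 the call of TMEM190 in trex4039 was lost, leaving 0 calls there. A window of 100 kb held 11 higher neighbours of 28 listed, in place of 24 of 107. At an adjusted p under 0.1 the 7 pathway lists had 10 higher rows in trex8168 in place of 5. The lists here include the 6 genes, none of which was called there at either threshold. The share of all rows at an adjusted p under 0.1 is not given, so the rise cannot be read as particular to the lists. With a pseudocount of 10, RUFY4, KLK7, WNT8A and TMEM190 shared 1 of their 3 nearest rows with those at a pseudocount of 1, and BZRAP1 shared 0. Each of these shifts comes from the changed setting alone, applied to the same deposited values.

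Leaving out each recovered library in turn gave 108 values, and each moved by less than the spread between libraries. Of the 18 log2 ratios to control, 7 took both signs: RUFY4 and TMEM190 in trex8168, KLK7 in trex5008, WNT8A in trex4039 and BZRAP1 in all 3 comparisons. The log2 ratio of TMEM190 in trex4039 ranged from -0.90 to -0.62. That of RUFY4 ranged from -0.79 to -0.43 in trex4039 and from -0.67 to -0.28 in trex5008. AGXT in trex4039, with 5 and 10 reads, ranged from 0.60 to 2.03, and at these read numbers a difference from control could not be resolved. No paired analysis was possible because the table gives group means and the recovered libraries carry no replicate number. The planned count models and their left-out replicates were not run for the same reason.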

Other observations

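AGXT was 1 of 32 rows, among the 634 called higher in trex0108, with at most 5 reads over the 3 control libraries together, and 11 of the 32 are protein-coding. These rows were chosen after their values were seen, from the same contrast, and are given as a description. The number of all listed rows with so few control reads is not given, nor the share of protein-coding rows. The 32 and the 11 therefore cannot be read as high or low. UNC93A (chr6:167682534-167729869, hg19) held 0 reads in control and a mean normalised count of 61.6 in trex0108. Against the level of 3 reads over the control group it was at least 68.5-fold higher. PAEP, the endometrial secretory protein glycodelin, had 0, 3 and 1 reads in the control libraries and stood at 17.4, 18.7 and 21.6 normalised counts in the trex0108 libraries. HAS1, a hyaluronan synthase, had 0, 2 and 1 reads in control and 7.14, 7.71 and 14.8 normalised counts in trex0108. C1QC, a chain of complement C1q made by macrophages, had 0, 1 and 1 reads in control, and its trex0108 libraries at 3.86, 11.4 and 14.3 were the most scattered of these 3. In the other target groups the means of PAEP, HAS1 and C1QC lay between 0.555 and 2.44.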
